A study of Mus musculus with 38 samples.

Results

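The comparison described here sets KO against WT cells of the Tcf21 lineage, sorted from visceral adipose tissue of mice fed a high-fat diet for 1 week (1W HFD). It rests on 6 of the 29 RNA-seq libraries of the series (38 samples with the ATAC-seq): 2 KO and 4 WT libraries, chosen by the group and diet time in their titles. Both groups started the diet at 6 weeks of age, and each library was made from 5000 cells collected by flow cytometry. The protocol of both groups lists tamoxifen, which activates MerCreMer, an inducible Cre recombinase. The labels list 75 mg/kg body weight per day for adults and 100 µg per day for neonates without saying which age was dosed here. The titles of the samples write only KO and WT. The genotype field of the labels writes Tcf21 with the genotype, and the title of the series names Tcf21 as the gene under study. The alleles, the deleted part of Tcf21, the promoter of MerCreMer, the strain and the sex are not given in the sources used here. Nor is it given whether libraries come from separate animals, so p-values measure the spread between libraries. In the limma fit this spread is pooled within the 8 groups of all 29 RNA libraries, not taken from the 6 alone.

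Tcf21 encodes a basic helix-loop-helix transcription factor of mesenchymal cells in visceral organs, and its lineage in visceral fat includes the fibroblast-like progenitors from which adipocytes form. Such factors pair with E proteins, bind short E-box motifs with the pattern CANNTG, and are held in check by the Id proteins, which pair but do not bind DNA. High-fat feeding is known to bring progenitors of visceral fat into the cell cycle within days, before adipocyte number grows. Progenitors of this tissue lie close to mesothelium, macrophages and vessels, whose markers are given below for that reason.

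The deposited values are TPM, a transcript abundance scaled within each library; columns summed to 947414 to 956206, and read depth is unknown. Between 11801 and 12515 genes reached 1 TPM in each of the 6 libraries. The Y chromosome genes Ddx3y (64.8 to 87.2 TPM) and Eif2s3y (58.9 to 89.7 TPM) were present in all 6, although the labels state no sex. The genotype field of the labels contradicts the title in 22 of 38 samples and in all 6 libraries compared here; titles, column names and the separate KO and WT tables give the same genotype and were followed. Markers of fibroblastic progenitors were abundant throughout: the receptor gene Pdgfra lay at 110.0 and 96.9 TPM in the KO libraries and between 85.5 and 105 TPM in the WT libraries, and the matrix gene Dcn at 17678 and 12257 TPM in the KO libraries and between 15135 and 22165 TPM in the WT libraries. Correlations of log2(TPM + 1) across genes were 0.943 between the KO libraries, 0.932 to 0.956 between KO and WT libraries, and 0.94 to 0.961 among WT libraries. KO replicates 1 and 2 differed by at least 1 log2 unit at 2663 genes (2133 to 3595 for pairs of WT libraries). Values below are given for KO replicates 1 and 2, then for WT replicates 1 to 4.

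Tcf21 itself did not separate the groups. It stood at 8.10 and 16.4 TPM in the KO libraries, against 13.6, 47.4, 11.3 and 19.98 TPM in the WT libraries. KO replicate 2 lay inside the WT range and KO replicate 1 below it. The KO mean was 53.2% of the WT mean, and the log2 change was -0.71 ± 0.52 (limma, adjusted p = 1; two-sided exact permutation p = 0.467, where 2 against 4 libraries cannot go below 0.0667). Without the highest WT library, replicate 2, the log2 change was -0.30. Transcript from a gene that has lost only part of its sequence would still count, so Tcf21 does not settle which genotype label is right.

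Of 15659 genes tested, 4 were higher in KO cells and 0 lower at an adjusted p under 0.05 (limma with Benjamini-Hochberg adjustment; 0.0255% and 0% of genes). At an unadjusted p under 0.05 there were 328 higher and 212 lower genes (2.09% and 1.35%), 540 in all, where 5% of the genes tested would be 783. Both KO libraries lay above all WT libraries at 935 genes (5.97%) and below all of them at 847 (5.41%). The median log2 change of all genes tested was 0.00, with 49.3% of genes positive. Taken alone, KO replicate 1 lay above all WT libraries at 3032 of the 15659 genes and below all of them at 2110. KO replicate 2 alone did so at 3134 and 3032 genes. The counts of list members above or below WT given below are to be read against these values over all genes. The 4 genes that passed were an immunoglobulin segment, a mesothelial gene, a cystatin and a predicted gene, and each was listed at or near 0 in the WT libraries.

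Ighv2-6-8, a variable segment of the immunoglobulin heavy chain (ENSMUSG00000076646, mm10 chromosome 12, 113796138 to 113796567), was listed at 19.3 and 21.5 TPM in the KO libraries and at 0 in the 4 WT libraries. Its fitted log2 change was 4.42 ± 0.56 (limma, adjusted p = 0.00023). The KO values were close to each other although the immunoglobulin total was not: all immunoglobulin genes summed to 8320 TPM in KO replicate 1 and 202 TPM in KO replicate 2, against 32.3, 217, 1152 and 255 TPM in the WT libraries. Variable segments are similar in sequence and can share reads, so the value of a single segment is uncertain. Among the other RNA libraries, Ighv2-6-8 was listed above 0 in 1 KO library and 1 WT library after 12 weeks of diet, at 0.48 and 8 TPM, and in 1 WT library of 6 months, at 2.73 TPM.

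Lrrn4, a leucine-rich repeat membrane protein used as a mesothelial marker (ENSMUSG00000043110, chromosome 2, 132868305 to 132880891), was listed at 8.35 and 2.86 TPM in the KO libraries and at 0 in all WT libraries. The fitted log2 change was 2.59 ± 0.34 (limma, adjusted p = 0.00023). Cstdc4, of the cystatin family of protease inhibitors (ENSMUSG00000079597, chromosome 16, 36184212 to 36188111), was low: 1.33 and 1.06 TPM in the KO libraries, listed at 0 in the WT libraries (log2 change 1.13 ± 0.20, limma, adjusted p = 0.0195). Gm42608, a predicted gene (ENSMUSG00000106651, chromosome 3, 55517569 to 55519586), reached 3.78 and 1.35 TPM in the KO libraries and 0.03 TPM in WT replicate 2 alone, with the other WT libraries listed at 0 (log2 change 1.73 ± 0.33, limma, adjusted p = 0.0454). A listed 0 can be a failed estimate: the mitochondrial gene mt-Nd3 was also listed at 0 in both KO libraries and WT replicate 3, at 16.9, 8.23 and 58.5 TPM in WT replicates 1, 2 and 4. The fitted changes of these 4 genes therefore depend on the pseudocount of 1 TPM and are no fold. Genes were tested where at least 2 of the 29 libraries reached 1 TPM, and 3 of the 4 met this through the KO libraries compared here. Cstdc4 reached 1 TPM in those 2 libraries alone, with at most 0.28 TPM elsewhere. Lrrn4 reached it in 1 further library, a KO library of 3 weeks of age at 1.28 TPM, and Gm42608 in 1 further library, a WT library labelled P12 at 1.15 TPM. Genes this low could enter the test only by being high in the KO libraries, so that these 3 passed is a description of them.

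None of the 4 averages 5 TPM over the 29 libraries, and 0 genes passed in limma with a minimum mean of 5 TPM (262 at an unadjusted p under 0.05), whereas 11 passed with no minimum. A fit of the 6 libraries alone passed 15 genes, of which Ighv2-6-8 and Cstdc4 are among the 4. Lrrn4 and Gm42608 did not pass there, where the other groups add nothing to the estimate of the spread. The count was 9 without KO replicate 1 and 28 without KO replicate 2, with 1 and 4 of the 4 genes among them, and 2 without WT replicate 1, 3 or 4 (Ighv2-6-8 and Lrrn4 each time).

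**Figure D1:**
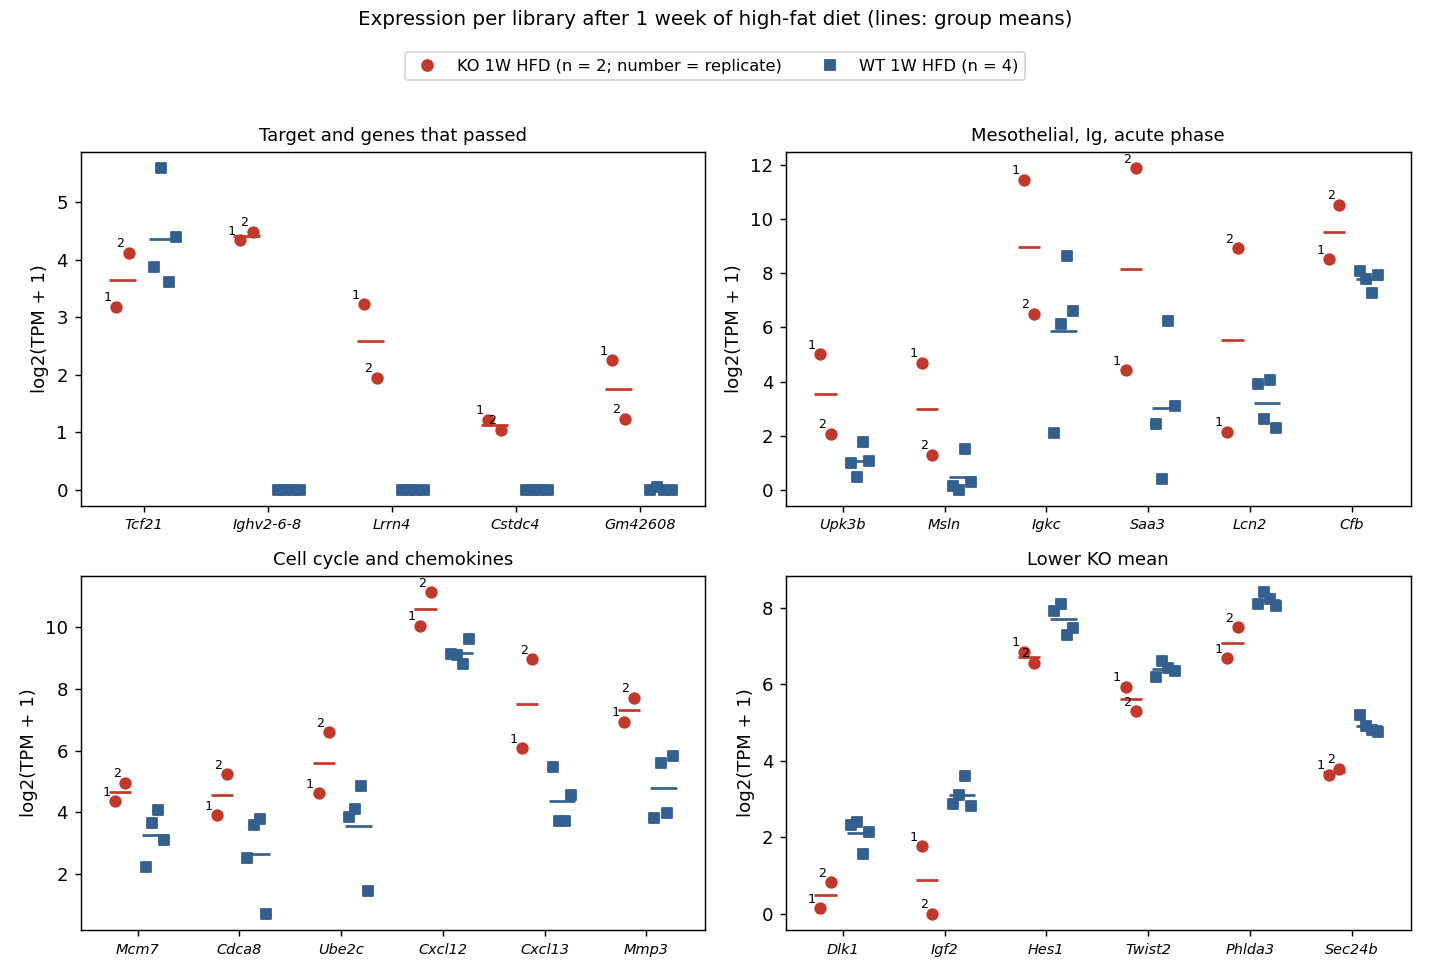
Level of selected genes in log2(TPM + 1) in each library after 1 week of high-fat diet; circles are the KO libraries with their replicate number, squares the WT libraries, and lines the group means. Ighv2-6-8, Lrrn4, Cstdc4 and Gm42608 lie at or near 0 in every WT library, Msln and Igkc are highest in KO replicate 1, and Saa3 and Lcn2 in KO replicate 2.

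The promoters of Lrrn4 and Cstdc4 are shown because these are the passing genes with a window in the RefSeq table (GRCm38.p6, the NCBI name of mm10); each run is the 250 bases before RefSeq's start of the gene, 5′ to 3′ on the gene's strand, with capitals marking CANNTG. RefSeq's starts differ from the gene bounds of the deposited tables for Lrrn4 and Ube2c, whose windows reach into the deposited gene span. Those of Dlk1 and Ube2c, whose values follow below, are set beside them as genes with lower and higher KO values. The printed windows are chr2:132880863-132881112 (minus strand) for Lrrn4, chr16:36183962-36184211 (plus) for Cstdc4, chr12:109452573-109452822 (plus) for Dlk1 and chr2:164769679-164769928 (plus) for Ube2c.
Lrrn4: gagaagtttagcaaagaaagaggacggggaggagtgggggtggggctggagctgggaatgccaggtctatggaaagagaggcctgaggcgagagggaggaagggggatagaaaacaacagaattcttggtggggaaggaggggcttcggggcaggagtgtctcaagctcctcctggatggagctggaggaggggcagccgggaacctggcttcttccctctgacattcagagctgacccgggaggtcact
Cstdc4: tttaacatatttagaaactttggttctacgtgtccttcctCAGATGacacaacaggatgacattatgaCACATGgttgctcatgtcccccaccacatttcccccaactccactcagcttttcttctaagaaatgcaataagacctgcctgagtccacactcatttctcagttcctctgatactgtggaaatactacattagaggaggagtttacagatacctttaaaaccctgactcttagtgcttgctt
Dlk1: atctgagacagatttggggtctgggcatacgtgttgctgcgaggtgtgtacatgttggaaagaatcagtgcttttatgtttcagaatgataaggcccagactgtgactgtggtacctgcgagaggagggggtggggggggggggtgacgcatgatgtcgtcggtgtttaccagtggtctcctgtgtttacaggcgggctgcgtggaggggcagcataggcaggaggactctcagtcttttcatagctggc
Ube2c: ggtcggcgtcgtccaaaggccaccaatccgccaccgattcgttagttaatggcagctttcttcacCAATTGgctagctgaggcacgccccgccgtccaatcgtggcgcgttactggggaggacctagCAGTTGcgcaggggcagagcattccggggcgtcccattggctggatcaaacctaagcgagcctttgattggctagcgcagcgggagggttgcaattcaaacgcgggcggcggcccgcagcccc
The windows of Cstdc4 and Ube2c hold 2 CANNTG matches each, and those of Lrrn4 and Dlk1 none. No window of the 4 holds the narrower form CAGCTG. Both motifs read the same on both strands. Of 32851 windows of that length, 66.2% hold the wider motif and 13.0% the narrower one, and both the windows and the motifs were chosen after expression values were seen.

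ATAC-seq, which marks open chromatin, was used for WT cells at this time (2 libraries, 85959 and 76321 peaks). Peaks were set against the whole RefSeq promoter window of a gene, whose first 250 bases are the run printed above. An overlapping peak therefore need not cover the printed bases. A peak overlapped the window of Dlk1 in both libraries, with fold enrichments over background of 7.92 and 5.84 as the authors' peak caller gave them, and the window of Ube2c with 34.9 and 35.3. The windows of Lrrn4 and Cstdc4 had a peak in neither library. Over all genes tested, 88.1% of the 11293 with a window had a peak in both, against 42 of 57 named genes with a window (73.7%). Among the 14 named genes with a peak in neither library were the mesothelial genes Lrrn4 and Upk3b, the leukocyte gene Ptprc, the haemoglobin gene Hbb-bt and the inflammatory genes Saa3 and Cxcl13.

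The mesothelial list, genes of the lining of the abdominal cavity, was high in 1 KO library more than in the other. Of its 16 tested members 11 had a positive log2 change, 1 passed (Lrrn4), 3 lay wholly above WT and 1 wholly below, and the median was 0.79. Of all genes tested 49.3% were positive, 5.97% lay wholly above WT and 5.41% wholly below. Upk3b, a uroplakin of mesothelium, had 31.3 and 3.18 TPM in the KO libraries, against 0.97, 0.37, 2.37 and 1.06 TPM in the WT libraries (log2 change 2.48 ± 0.80, limma, adjusted p = 1). The surface protein gene Msln had 24.8 and 1.46 TPM in the KO libraries, against 0.09, 0, 1.83 and 0.21 TPM in the WT libraries. The uroplakin Upk1b had 18.5 and 2.19 TPM in the KO libraries, against 0, 0, 1.47 and 1.28 TPM in the WT libraries. KO replicate 1 was well above every WT library for these 3 genes; KO replicate 2 overlapped WT for Msln and lay just above it for Upk3b and Upk1b. Wt1, a transcription factor that visceral stroma and mesothelium share, lay wholly below WT at 67.9 and 78.0 TPM in the KO libraries, against 79.2, 79.8, 84.7 and 112 TPM in the WT libraries. Of the members, 10 exceeded all WT libraries in KO replicate 1 and 3 did in KO replicate 2. Over all 15659 genes tested these counts were 3032 and 3134, so that of KO replicate 2 is near the share of all genes. The list median was -0.01 without KO replicate 1 and 1.55 without KO replicate 2. It was -0.24 over genes averaging at least 5 TPM and 2.13 with a pseudocount of 0.1 TPM, so its direction depends on the filter on low values.

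Immunoglobulin genes were likewise high in KO replicate 1. The light-chain constant gene Igkc had 2837 and 90.4 TPM in the KO libraries, against 3.29, 69.3, 398 and 95.9 TPM in the WT libraries. Ighm, the constant gene of IgM, had 383 and 15.3 TPM in the KO libraries, against 10.6, 46.3, 22.8 and 11.01 TPM in the WT libraries. Mzb1, a chaperone of plasma cells, had 17.6 and 0 TPM in the KO libraries, against 0, 0, 1.82 and 2.11 TPM in the WT libraries. KO replicate 2 lay inside the WT range for Igkc, Ighm and Mzb1. Of 11 tested markers of B and plasma cells 9 were positive, where 49.3% of all genes were, and none passed. Their median was 0.80 (-0.26 without KO replicate 1 and 2.20 without KO replicate 2). The share of these genes that reflects more cells of a type or more RNA per cell cannot be told apart in bulk libraries, here or below.

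Macrophage markers were higher in both KO libraries for part of the list. Across all genes tested 49.3% were positive and 5.97% lay wholly above WT, shares that also apply to the MHC class II genes below. Of 20 tested markers 18 had a positive log2 change, 6 lay wholly above WT and none passed; the median was 0.60 (0.97 without KO replicate 1 and 0.29 without KO replicate 2). Ptprc, the pan-leukocyte phosphatase CD45, had 5.67 and 4.12 TPM in the KO libraries, against 0.94, 2.49, 1.46 and 1.08 TPM in the WT libraries (log2 change 1.27 ± 0.53). The lysosomal protease gene Ctss had 39.6 and 50.98 TPM in the KO libraries, against 6.68, 18.6, 20.4 and 34.6 TPM in the WT libraries. The mannose receptor gene Mrc1 had 9.63 and 19.4 TPM in the KO libraries, against 2.69, 12.97, 5.76 and 5.57 TPM in the WT libraries. Both KO libraries were above all WT libraries for Ptprc and Ctss and KO replicate 1 overlapped WT for Mrc1. The summed level of the list was 624 and 962 TPM in the KO libraries, against 339 to 512 TPM in the WT libraries. Genes of antigen presentation by MHC class II had a median of 0.60 (6 of 7 positive, 3 wholly above WT; 0.40 and 0.92 without KO replicate 1 or 2), with H2-Aa at 168 and 133 TPM in the KO libraries, against 85.2, 79.5, 89.2 and 98.2 TPM in the WT libraries.

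Erythroid genes also had a positive median, 1.26 over 6 tested markers, without passing. The haemoglobin gene Hbb-bt had 289 and 260.4 TPM in the KO libraries, against 130.4, 16.5, 258 and 63.8 TPM in the WT libraries, and the list summed to 8277 and 6039 TPM in the KO libraries, against 916 to 7335 TPM in the WT libraries, so the sums overlapped. Endothelial markers (16 tested, median 0.03, but -0.73 without KO replicate 1 and 0.90 without KO replicate 2) summed to 2084 and 788 TPM in the KO libraries and 822 to 2379 TPM in the WT libraries. The part of cells of these types in the other results was not tested.

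**Figure D2:**
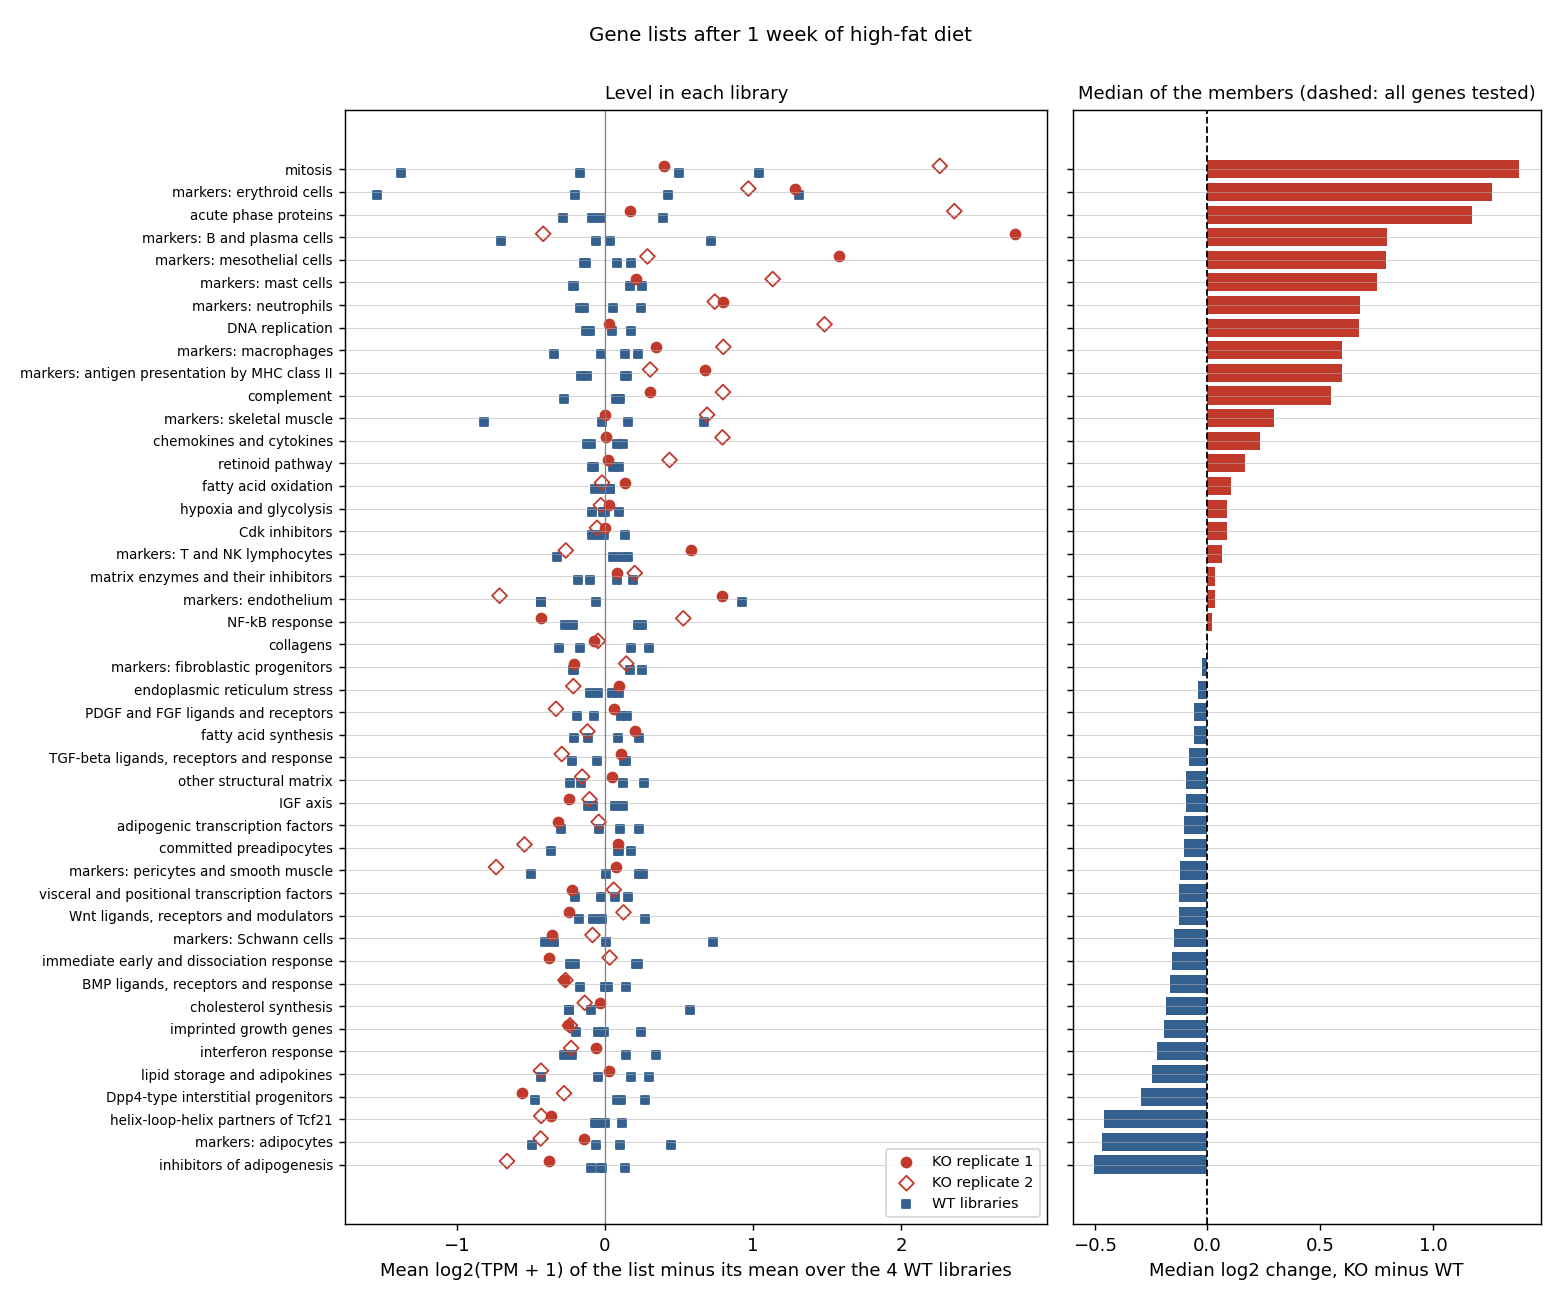
Gene lists in the 1W HFD libraries. Left, the mean log2(TPM + 1) of each list in each library minus its mean over the 4 WT libraries (filled circle, KO replicate 1; open diamond, KO replicate 2; squares, WT libraries); right, the median log2 change of the tested members, KO minus WT, with a dashed line at the median of all genes. The KO libraries part from each other for mitosis, acute phase, B and plasma cell and mesothelial lists, and lie together below WT for inhibitors of adipogenesis and helix-loop-helix partners of Tcf21.

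Acute phase genes, secreted by stroma and liver in inflammation, were high in KO replicate 2 and near WT in KO replicate 1. Of 15 tested members 14 were positive (median 1.17), none passed and 2 lay wholly above WT. Across all genes tested 49.3% were positive and 5.97% lay wholly above WT. Saa3, a serum amyloid protein made in adipose tissue, had 20.4 and 3825 TPM in the KO libraries, against 4.41, 0.31, 73.96 and 7.53 TPM in the WT libraries (log2 change 5.12 ± 1.69, limma, adjusted p = 1). Lcn2, an iron-siderophore-binding lipocalin, had 3.40 and 484 TPM in the KO libraries, against 14.2, 5.12, 15.5 and 3.80 TPM in the WT libraries. The protease inhibitor gene Serpina3n had 145 and 1079 TPM in the KO libraries, against 343, 155, 108 and 108 TPM in the WT libraries. KO replicate 2 stood above every WT library at all 3 genes, while KO replicate 1 was inside the WT range for Saa3 and Serpina3n and below it for Lcn2. Over the list, 13 members exceeded every WT library in KO replicate 2 and 2 did in KO replicate 1 (3134 and 3032 of all 15659 genes tested). Its median was 1.85 without KO replicate 1 and 0.09 without KO replicate 2.

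Complement genes had 16 of 21 tested members positive and 5 wholly above WT, where 5.97% of all genes did (median 0.55; 0.88 without KO replicate 1 and 0.22 without KO replicate 2; none passed). Cfb, factor B of the alternative pathway, had 367 and 1496 TPM in the KO libraries, against 269.9, 222, 156 and 248 TPM in the WT libraries (log2 change 1.75 ± 0.76). C4b, a component of the classical pathway whose close copy C4a can share its reads, had 28.5 and 116 TPM in the KO libraries, against 18.9, 29.2, 18.1 and 26.4 TPM in the WT libraries. Cfp, properdin, had 19.4 and 47.8 TPM in the KO libraries, against 13.9, 14.6, 4.93 and 7.94 TPM in the WT libraries. Both KO libraries were above WT for Cfb and Cfp, with replicate 2 the higher, and KO replicate 1 overlapped WT for C4b.

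Chemokine and cytokine genes were mixed: 20 of 33 tested members were positive, 5 lay wholly above and 2 wholly below WT, and none passed. Of all genes 49.3% were positive, 5.97% lay wholly above and 5.41% wholly below WT. The median was 0.23 (0.61 without KO replicate 1 and 0 without KO replicate 2). Cxcl12, the stromal chemokine that retains leukocytes and progenitors, had 1063 and 2266 TPM in the KO libraries, against 561, 553, 454 and 789.6 TPM in the WT libraries (log2 change 1.42 ± 0.50, limma, adjusted p = 1). The B cell chemokine gene Cxcl13 had 67.3 and 499.7 TPM in the KO libraries, against 43.04, 12.3, 12.1 and 22.8 TPM in the WT libraries. Ccl9, which attracts myeloid cells, had 10.4 and 52.2 TPM in the KO libraries, against 2.52, 6.09, 8.74 and 3.86 TPM in the WT libraries. At each of these 3 genes both KO libraries were above all WT libraries and KO replicate 2 was the higher. The same held for Cxcl5, which attracts neutrophils, with 1.94 and 27.4 TPM in the KO libraries, against 0, 0.97, 0.18 and 0.60 TPM in the WT libraries. NF-kB response genes had a median of 0.02, which was 0.50 without KO replicate 1 and -0.20 without KO replicate 2. The median of interferon response genes was -0.23 with 20 of 30 negative (-0.29 and -0.08 without KO replicate 1 or 2).

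Cell cycle genes were almost all positive. Of 31 tested genes of mitosis 30 were positive (median 1.38), and of 28 of DNA replication 26 (median 0.67), with 4 and 6 wholly above WT, against 5.97% of all genes, and none past the threshold. Mcm7, a subunit of the replicative helicase, had 19.6 and 30.1 TPM in the KO libraries, against 3.73, 11.7, 15.98 and 7.68 TPM in the WT libraries (log2 change 1.38 ± 0.54, limma, adjusted p = 1). Cdca8, a subunit of the chromosomal passenger complex, had 14.1 and 36.7 TPM in the KO libraries, against 4.69, 11.1, 12.7 and 0.64 TPM in the WT libraries. Ube2c, the ubiquitin-conjugating enzyme of the anaphase-promoting complex, had 23.7 and 96.2 TPM in the KO libraries, against 13.3, 16.2, 28.1 and 1.72 TPM in the WT libraries. For Mcm7 and Cdca8 both KO libraries were above all WT libraries, and for Ube2c KO replicate 1 overlapped them. Cdk1, the kinase that starts mitosis, had 27.1 and 76.9 TPM in the KO libraries, against 22.9, 31.8, 14.3 and 0 TPM in the WT libraries, with KO replicate 1 inside the WT range.

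The KO libraries differed in this respect at every gene of both lists: KO replicate 2 was above KO replicate 1 for 31 of 31 genes of mitosis and 28 of 28 of DNA replication. KO replicate 2 exceeded all WT libraries at 31 and 26 of them, and KO replicate 1 at 4 and 6. KO replicate 1 lay below all WT libraries at 1 and 5. Its mean log2(TPM + 1) was inside the WT range for both lists: 2.98 for mitosis (WT 1.20 to 3.62) and 2.90 for DNA replication (WT 2.74 to 3.04). Of all 15659 genes tested, KO replicate 2 was above KO replicate 1 at 6771. It exceeded all WT libraries at 3134, and KO replicate 1 did at 3032. WT replicate 4 was the lowest library for the mitosis list (mean log2(TPM + 1) 1.20, against 2.41 to 3.62 in the other WT libraries). The mitosis median was 2.21 without KO replicate 1 and 0.59 without KO replicate 2, and the DNA replication median 1.49 and 0.17. Cdk inhibitor genes had a median of 0.09 (-0.10 without KO replicate 1).

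**Figure D3:**
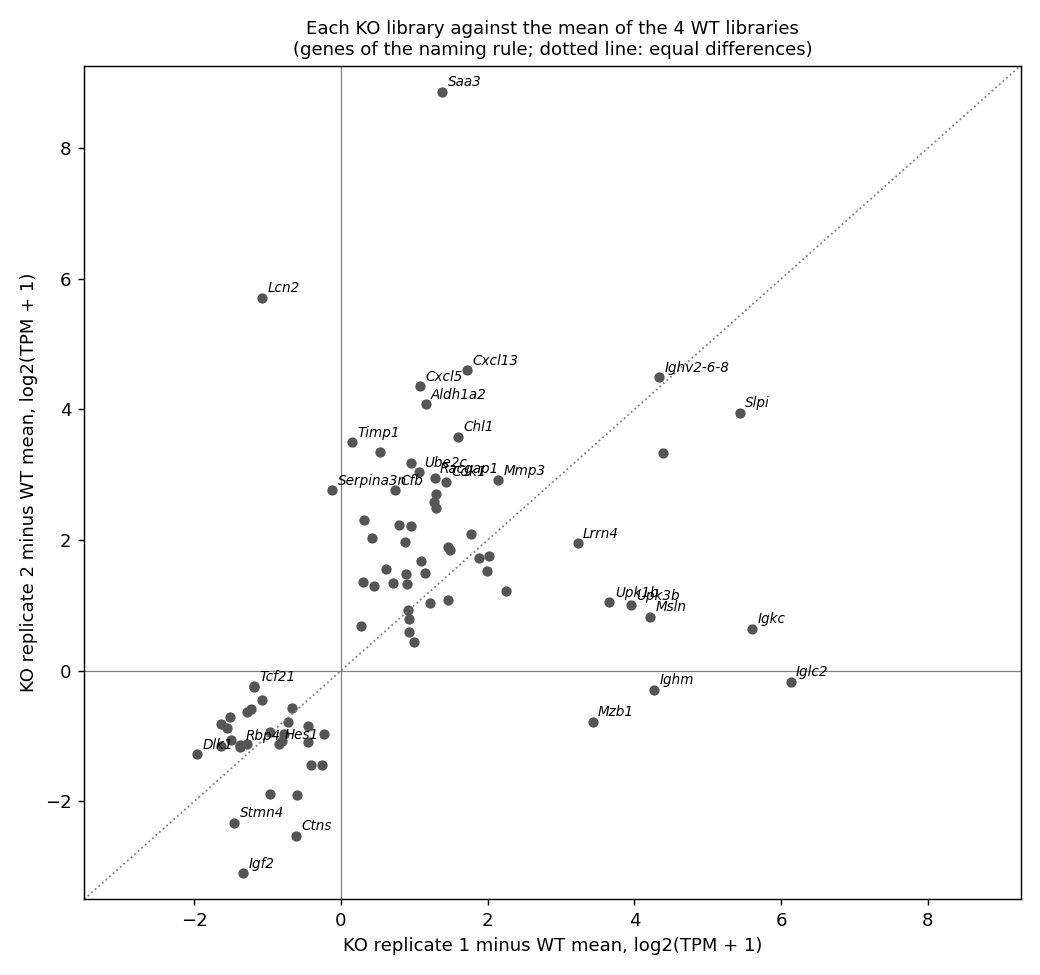
Each point is 1 of 86 genes taken from the naming rule, by its log2(TPM + 1) in KO replicate 1 (horizontal) and KO replicate 2 (vertical), each minus the mean of the 4 WT libraries; the dotted line marks equal differences. Ighv2-6-8 lies on the line, mesothelial and immunoglobulin genes to the right below it, acute phase, chemokine and cell cycle genes above it, and Dlk1, Igf2 and Hes1 at the lower left.

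Genes that hold adipogenesis back were mostly lower in the KO libraries, without passing. Of 21 tested inhibitors 19 had a negative log2 change and 6 lay wholly below WT (Dlk1, Hes1, Twist2, Gli1, Sox9 and Wnt10b), where 5.41% of all genes did; the median was -0.50, and -0.57 and -0.41 without KO replicate 1 or 2. Dlk1, the imprinted transmembrane protein that keeps preadipocytes undifferentiated, had 0.11 and 0.78 TPM in the KO libraries, against 4.03, 4.32, 1.98 and 3.41 TPM in the WT libraries (log2 change -1.62 ± 0.50, limma, adjusted p = 1). Hes1, a repressor downstream of Notch, had 115 and 94.3 TPM in the KO libraries, against 243, 276, 156 and 175 TPM in the WT libraries (log2 change -0.98 ± 0.37). Twist2, a helix-loop-helix factor of mesenchyme, had 60.5 and 38.6 TPM in the KO libraries, against 72.4, 96.2, 84.7 and 80.6 TPM in the WT libraries (log2 change -0.77 ± 0.31). The KO and WT libraries did not overlap at any of these 3 genes. Ddit3, a stress-induced C/EBP partner, had 57.2 and 27.3 TPM in the KO libraries, against 99.7, 69.7, 54.9 and 88.9 TPM in the WT libraries, with KO replicate 1 inside the WT range.

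The helix-loop-helix list, which holds Tcf21, its E protein partners, the Id proteins and related factors, had 13 of 16 tested members negative and 3 wholly below WT (median -0.46; none passed). Of all 15659 genes tested 7559 were negative, and 5.41% lay wholly below WT. The helix-loop-helix list shares Hes1, Twist1, Twist2, Id2, Id3 and Msc with the inhibitors. Id2 had 149 and 112 TPM in the KO libraries, against 359, 210.0, 131 and 172 TPM in the WT libraries. Id3 had 594 and 638 TPM in the KO libraries, against 1225, 1159, 585 and 971 TPM in the WT libraries. Both overlapped: KO replicate 1 for Id2, and both KO libraries for Id3, stood above WT replicate 3 alone.

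Imprinted growth genes had 11 of 17 tested members negative and 3 wholly below WT (median -0.19). Of all 15659 genes tested 7559 were negative, and 5.41% lay wholly below WT. Igf2, the fetal insulin-like growth factor, had 2.40 and 0 TPM in the KO libraries, against 6.33, 7.65, 11.1 and 6.04 TPM in the WT libraries (log2 change -2.22 ± 0.64, limma, adjusted p = 0.902). Mest, a gene linked to fat mass expansion, had 32.8 and 27.01 TPM in the KO libraries, against 36.2, 91.9, 64.6 and 52.1 TPM in the WT libraries. Both KO libraries were below all WT libraries for both genes. In the IGF axis, Igf1r, the receptor, was higher, with 12.6 and 12.7 TPM in the KO libraries, against 2.94, 9.78, 6.66 and 7.33 TPM in the WT libraries. Igfbp6, an IGF-II binding protein, had 2801 and 1686 TPM in the KO libraries, against 3644, 3271, 3017 and 3298 TPM in the WT libraries; neither gene overlapped between groups.

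Adipogenic transcription factors had 12 of 16 tested members negative, 3 of them wholly below WT (none passed). Among all 15659 genes tested 7559 were negative, and 5.41% lay wholly below WT. The list median of -0.10 was 0.05 without KO replicate 1 and -0.23 without KO replicate 2, so its sign turns without KO replicate 1. Pparg, the nuclear receptor that drives adipocyte differentiation, had 32.9 and 13.9 TPM in the KO libraries, against 64.98, 38.4, 46.4 and 20.6 TPM in the WT libraries. Cebpa, which acts with it, had 3.10 and 2.61 TPM in the KO libraries, against 4.84, 8.18, 6 and 5.53 TPM in the WT libraries. Cebpa did not overlap between groups, and Pparg did. Lipid storage and adipokine genes had 16 of 22 negative (median -0.25; 1 wholly below WT). KO replicate 2 was below every WT library at 9 of them and KO replicate 1 at 1 (3032 and 2110 of all 15659 genes tested). The median of the list was -0.56 without KO replicate 1 and -0.05 without KO replicate 2. Of these, Fabp4, a fatty acid carrier of committed preadipocytes and adipocytes, ranged over 1509 and 544 TPM in the KO libraries and 534 to 1716 TPM in the WT libraries.

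Dpp4-type interstitial progenitor genes mark the uncommitted pool around vessels and under the mesothelium. Of 17 tested, 12 were negative, 4 lay wholly below WT and 1 wholly above. Of all 15659 genes tested 7559 were negative, 5.41% lay wholly below WT and 5.97% wholly above. The list median was -0.29 (-0.22 and -0.45 without KO replicate 1 or 2). Stmn4, a stathmin, had 37.6 and 20.1 TPM in the KO libraries, against 94.2, 124, 107 and 96.7 TPM in the WT libraries (log2 change -1.89 ± 0.76). Bmp7, a ligand that can drive brown fat differentiation, had 2.45 and 2.98 TPM in the KO libraries, against 5.88, 7.13, 10.02 and 9.48 TPM in the WT libraries. Sfrp4, a secreted Wnt antagonist, lay wholly above WT, with 672 and 1396 TPM in the KO libraries, against 406, 594, 609 and 594 TPM in the WT libraries. Dpp4 itself overlapped, with 96.4 and 82.1 TPM in the KO libraries, against 55.9 to 95.7 TPM in the WT libraries. Genes of committed preadipocytes had a median of -0.11, which was -0.54 without KO replicate 1 and 0.13 without KO replicate 2. The medians of collagens (0.00) and other structural matrix (-0.09) lay close to that of all genes.

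Single genes of other pathways stood apart from lists that did not. Mmp3, a matrix metalloproteinase, had 122 and 210.4 TPM in the KO libraries, against 13.2, 47.5, 14.7 and 55.4 TPM in the WT libraries (log2 change 2.53 ± 0.78). Its inhibitor gene Timp1 had 92.4 and 948 TPM in the KO libraries, against 98.6, 75.2, 99.02 and 64.7 TPM in the WT libraries. Both KO libraries were above WT for Mmp3, but KO replicate 1 overlapped WT for Timp1; the list of matrix enzymes had a median of 0.03. Aldh1a2, which makes retinoic acid, had 6.42 and 55.2 TPM in the KO libraries, against 0, 4.84, 4.02 and 3.20 TPM in the WT libraries. Of its retinoid list 14 of 18 were positive, where 49.3% of all genes were. The list median was 0.16 (0.39 and 0.04 without KO replicate 1 or 2). Rbp4, the retinol carrier, had 49.5 and 58.7 TPM in the KO libraries, against 296, 197, 50.5 and 97.05 TPM in the WT libraries, with KO replicate 1 just below the WT range and KO replicate 2 inside it. Wnt2b, a Wnt ligand, had 0.26 and 0.71 TPM in the KO libraries, against 3.81, 1.88, 2.10 and 2.74 TPM in the WT libraries. Frzb, a Wnt antagonist, had 2.82 and 9.43 TPM in the KO libraries, against 0.34, 1.73, 0.81 and 2.64 TPM in the WT libraries; neither overlapped, while the Wnt list had a median of -0.13 (0.12 without KO replicate 1).

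Among the genes with the smallest unadjusted p whose groups do not overlap and whose higher mean reaches 10 TPM, the higher ones included Slpi, an antiprotease of mucosal and mesothelial surfaces, with 88.2 and 30.9 TPM in the KO libraries, against 0, 0, 4.77 and 2.13 TPM in the WT libraries. Cyp7b1, an oxysterol hydroxylase, had 15.9 and 20.2 TPM in the KO libraries, against 1.89, 6.10, 3.77 and 5.18 TPM in the WT libraries (log2 change 1.93 ± 0.52, limma, adjusted p = 0.8). The membrane protein genes Tmem176a and Tmem176b, neighbours in the genome, also stood apart. Tmem176a had 85.6 and 229 TPM in the KO libraries, against 30.8, 33.7, 29.96 and 45.2 TPM in the WT libraries. Tmem176b had 225 and 305 TPM in the KO libraries, against 91.6, 76.6, 51.5 and 120.3 TPM in the WT libraries. For these 4 genes the lowest KO library was above the highest WT library, as the rule that chose them requires. Chl1, a neural adhesion molecule, had 5.22 and 23.8 TPM in the KO libraries, against 2.20, 1.05, 1.78 and 0 TPM in the WT libraries.

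The lower ones included Sec24b, of the coat that forms vesicles at the endoplasmic reticulum, with 11.5 and 12.9 TPM in the KO libraries, against 35.7, 28.98, 27.2 and 25.97 TPM in the WT libraries (log2 change -1.20 ± 0.35, limma, adjusted p = 0.902). Cul4a, a ubiquitin ligase scaffold, had 33.9 and 32.5 TPM in the KO libraries, against 48.3, 56.03, 66.8 and 56.5 TPM in the WT libraries. Rufy1, an endosomal effector, had 14.6 and 15.1 TPM in the KO libraries, against 30.4, 28.97, 34.4 and 25.6 TPM in the WT libraries. The KO libraries lay close together at these 3 genes, and below every WT library by the rule that chose them. Phlda3, a repressor of Akt signalling, had 102 and 179 TPM in the KO libraries, against 272, 341, 300.4 and 263 TPM in the WT libraries (log2 change -1.11 ± 0.31). The smallest unadjusted p among them was that of Bloc1s4, a subunit of a complex that forms lysosome-related organelles, at 13.7 and 25.04 TPM in the KO libraries, against 42.1, 52.6, 44.95 and 40.2 TPM in the WT libraries (log2 change -1.23 ± 0.29, limma, adjusted p = 0.498). Ctns, the lysosomal cystine transporter, had 19.4 and 4.41 TPM in the KO libraries, against 49.4, 21.9, 28.9 and 26.2 TPM in the WT libraries, and passed without KO replicate 1.

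Whether the KO difference itself changed with time was tested against KO and WT cells at 3 weeks of age (3W) on regular diet and after 12 weeks of the same diet (12W HFD). Against 3W, 1 of 15659 genes passed (0.00639%): Ighv2-6-8, whose KO effect was larger at 1W HFD by 4.42 on the log2 scale (limma, adjusted p = 0.00808). Ighv2-6-8 was listed at 0 in every 3W library, so this difference repeats its change at 1W HFD. The 3W titles name pairs of KO and WT libraries. With these pairs as a block 0 genes passed in limma (565 at an unadjusted p under 0.05; adjusted p = 0.118 for Ighv2-6-8). With the replicate number at 1W HFD as a further block 2 genes passed, both with a lower KO effect at 1W HFD, and Ighv2-6-8 was not among them (adjusted p = 0.258). Against 3W the count was 5 without KO 1W HFD replicate 1, 12 without KO 1W HFD replicate 2, and 2 without KO 3W replicate 2 or WT 1W HFD replicate 2.

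Against 12W HFD, 2 genes passed (0.0128%): Ighv2-6-8 by 4.77 (limma, adjusted p = 0.0238) and Lrrn4 by 2.66 (adjusted p = 0.0406). Leaving out 1 library at a time removed both in 6 instances. No gene at all passed without KO 12W HFD replicate 1 or without WT 1W HFD replicate 1, 3 or 4 (limma; 382 to 504 at an unadjusted p under 0.05). Without KO 12W HFD replicate 2, 3 other genes passed, all with a lower KO effect at 1W HFD, and without KO 1W HFD replicate 1, 3 others with a higher one. Lrrn4 was also lost, with Ighv2-6-8 still past the threshold, without WT 1W HFD replicate 2, without WT 12W HFD replicate 1, 2, 3 or 4, and with the replicate number as a block. Without KO 1W HFD replicate 2 the count was 16. Lrrn4 could enter the test only by being high in the KO libraries of 1W HFD, so that its difference from 12W HFD passed is a description of it. The times differ in age, in diet and possibly in the age of dosing, which cannot be told apart.

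For other genes the differences at each time are given side by side, none with a difference between times past the threshold. The log2 change of Chl1 was 0.07 at 3W, 2.59 at 1W HFD and 4.08 at 12W HFD, that of Cxcl12 -0.16, 1.42 and 1.46, and that of Aldh1a2 0.27, 2.62 and 2.83. Dlk1 was negative at the 3 times (-1.11, -1.62 and -0.74), as was Tcf21 (-0.91, -0.71 and -1.26). Hes1 (-0.08, -0.98 and 0.17), Sec24b (0.11, -1.20 and 0.21) and Igf2 (-0.64, -2.22 and 1.46) were lowest at 1W HFD. The 12W HFD changes of Dlk1 and Igf2 come from low values in both genotypes. Dlk1 was then listed at 0 in the KO libraries and at most at 1.07 TPM in WT. Igf2 had 3.33 and 1.45 TPM in the KO libraries and at most 1.10 TPM in WT. Among lists, the mitosis median was 0.62, 1.38 and -0.08, that of Dpp4-type genes 0.40, -0.29 and -0.42, and that of acute phase genes 0.27, 1.17 and 1.46. Macrophage markers had medians of 0.52, 0.60 and -0.67, and MHC class II genes 1.38, 0.60 and -1.38, so both lists were positive at 3W as well.

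**Figure D4:**
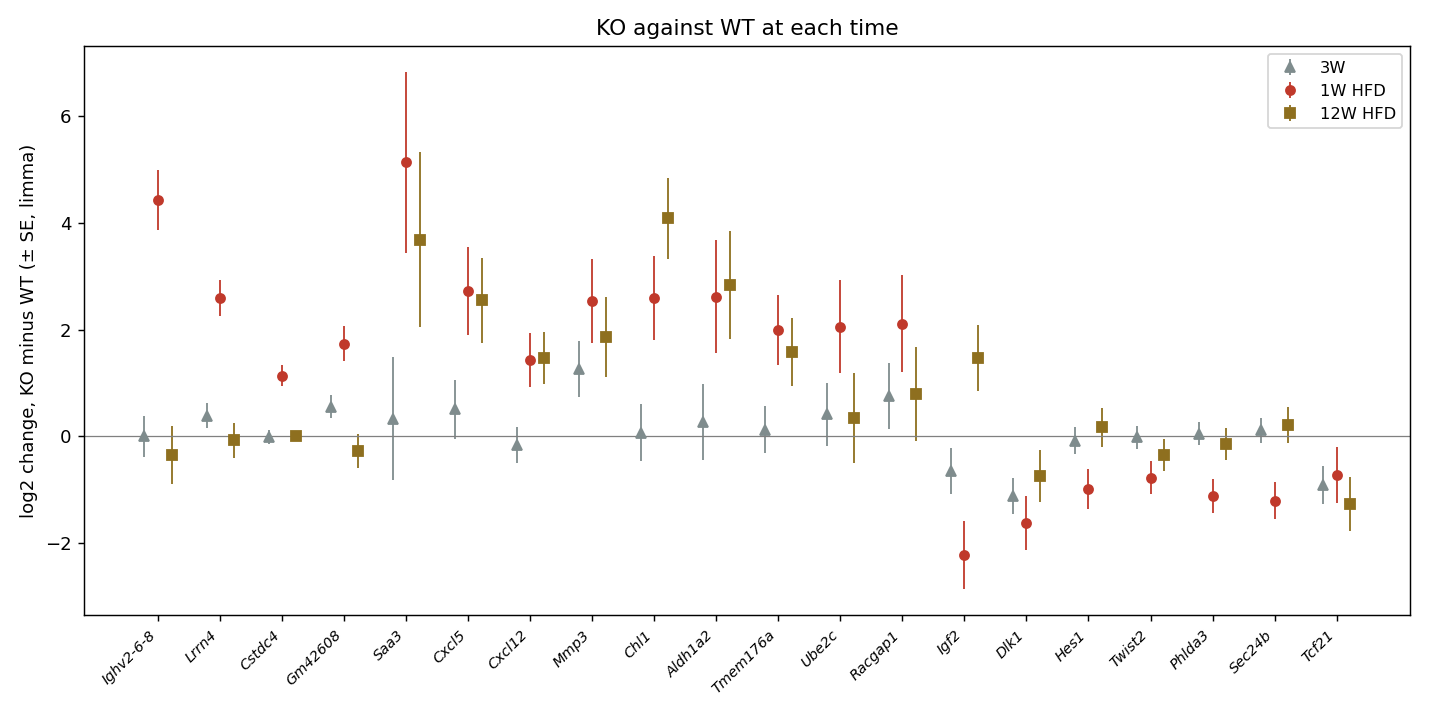
Log2 change, KO minus WT, of 20 genes at 3W (triangles), 1W HFD (circles) and 12W HFD (squares), with the standard error of the limma fit. Ighv2-6-8, Lrrn4 and Cstdc4 stand above 0 at 1W HFD and lie nearer 0 at the other times, whereas Cxcl5, Cxcl12, Chl1 and Aldh1a2 are similar or larger at 12W HFD.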

How the data were processed

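The TPM values are as deposited by the authors, in 1 table of KO and 1 of WT libraries, per the file headers. The build is mm10 and the tools include RSEM, STAR 2.5.3a, MACS2, Bowtie2 2.3 and Trim Galore 0.6, per the submitters' processing notes, which give no role for each. Strand use is not stated. Testing covered the 15659 of 25746 genes that reached 1 TPM in 2 or more of 29 libraries. The model was limma 3.58.1 (R 4.3.3) on log2(TPM + 1) of all 29 RNA libraries, with 8 group means and 21 residual degrees of freedom, an intensity trend, two-sided tests, and Benjamini-Hochberg adjustment over all genes (threshold 0.05). Changes of low genes come out too small on this scale. SE follows ±. A symbol listed more than once was read from its first entry.

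The 45 gene lists and the comparison were chosen with earlier results of these data known, so lists are described by counts and medians without a set test. The naming rule took Tcf21, all genes past the threshold in this comparison or in its difference from the other times, 12 non-overlapping genes per direction with a mean of at least 10 TPM, and 4 per list. It gave 188 genes, of which the text names a subset chosen after values were seen. The inhibitors Gli1, Sox9 and Wnt10b, the marker genes Pdgfra, Dcn, Wt1, Dpp4 and Fabp4 and the mitochondrial mt-Nd3 were also chosen after their values were seen. 1 gene is not reported here.

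Peaks are the authors' deposited lists, 1 per ATAC-seq library, holding per peak a score, the fold enrichment (a ratio) and a −log10 q value, per the file format; a promoter counted as open where a peak overlapped the RefSeq window by at least 1 base.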

Additional observations from a re-analysis of the deposited data

Results flagged for a closer look

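The KO difference of Ighv2-6-8 at 1W HFD exceeded that at 3W by 4.42 and that at 12W HFD by 4.77 on the log2 scale. The KO difference of Lrrn4 exceeded that at 12W HFD by 2.66. Each was past the threshold of the limma test of the difference. Ighv2-6-8 was listed at 0 in every 3W library. Lrrn4 could enter the test only by being high in the KO libraries of 1W HFD, so its result is a description. The difference from 3W did not pass with the pairs of the 3W titles as a block (0 genes in limma, 565 at an unadjusted p under 0.05), nor with the replicate number at 1W HFD added (0 higher and 2 lower genes). The differences from 12W HFD did not pass without KO 12W HFD replicate 2 (0 higher and 3 lower genes), without KO 12W HFD replicate 1, without KO 1W HFD replicate 1, or without WT 1W HFD replicate 1, 3 or 4. Among the WT libraries 1 value stood apart from the other 3, by Dixon's criterion for a lone sample, at 5 of the 86 genes taken from the naming rule. Chance flags about 1 in 20 groups of normally distributed values, a rate that does not hold where the other values are listed at 0. At 4 of the flagged genes 1 WT library stood above the others, which were listed at 0, so any value above 0 meets the criterion. These were Gm42608 in replicate 2 (0.03 TPM), S100a9 in replicate 4 (1.02 TPM), Cfi in replicate 3 (0.73 TPM) and Tbx15 in replicate 4 (0.02 TPM). Sfrp4 was lower in WT replicate 1, at 406 TPM, than in the other WT libraries (594 to 609 TPM).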

How the results depend on the processing

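The number of genes past the threshold in KO against WT was 4; it was 3 to 5 with a pseudocount of 0.1 TPM, 3 column scalings, no trend, array weights or the replicate number as a block, 11 with no filter, 0 with a mean of at least 5 TPM and 15 in the 6 libraries alone. Leaving out 1 library gave 2 to 28. The difference from 3W (1 gene) gave 0 with the pseudocount of 0.1 TPM, 8 with no filter, 0 with a mean of at least 5 TPM, 2 with quantile scaling, 3 without a trend, 2 with array weights, 2 with the block (0 higher and 2 lower, Ighv2-6-8 not among them), 0 with the pairs of the 3W titles alone as a block, chosen after seeing the data (565 at an unadjusted p under 0.05), and 1 to 12 with 1 library left out. The difference from 12W HFD (2 genes) gave 0 with that pseudocount, 14 with no filter, 0 with a mean of at least 5 TPM, 4 with the block (3 higher and 1 lower, of the 2 genes Ighv2-6-8 alone) and 0 to 16 with 1 library left out (0 higher and 3 lower without KO 12W HFD replicate 2). The cause of these shifts was not tested.

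At 1W HFD and 12W HFD the block is the replicate number, at 3W the pair in the title. The 6 title pairs at 3W correlated at 0.178 to 0.482 in their deviations from the group means, apart from KO replicate 3 with WT replicate 5 at -0.131. At 1W HFD the replicate numbers are only a shared number: same-numbered KO and WT libraries correlated at 0.0237 and 0.0766 in their deviations, with 2 pairs, and the block kept 2 of the 4 genes (Ighv2-6-8 and Lrrn4), with 3 higher and 2 lower in all. The Tcf21 log2 change was negative in every setting run (-1.18 to -0.24), -1.08 with the block. In KO against WT at 1W HFD, Ighv2-6-8 passed in every setting that tested it. Lrrn4 missed the threshold without KO replicate 1 and in the 6 libraries alone, Cstdc4 without KO replicate 1, without WT replicate 1, 3 or 4 and with the block. Gm42608 missed it in 9 settings, among them the pseudocount of 0.1 TPM and median-ratio scaling. The log2 change turned negative for Ighm (-0.29), Iglc2 (-0.17) and Mzb1 (-0.78) without KO replicate 1, against 4.27, 6.13 and 3.43 without KO replicate 2, and for Lcn2 (-1.07) and Serpina3n (-0.12) without KO replicate 2, against 5.71 and 2.77 without KO replicate 1. The share of open promoters moved from 88.1% to 87.5% with peaks of −log10 q of at least 5 and to 87.0% with overlap of at least 50% of the window. TPM hold no depth, so no counting error can be given, and 2 KO libraries limit every value here.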
